A study of Mus musculus with 12 samples.

Results

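Neutrophil marker and granule genes were followed in the mouse ear after injection of IL-17A, IL-36γ or both, as a set of 37 genes among the 50684 genes of the count table. The genes were listed by name, and each name was matched to its Ensembl identifier through the symbols that the authors paired with the counts. They comprised 12 receptors of mature neutrophils, 6 surface and adhesion genes, 4 genes of azurophil granules, 4 genes of specific and gelatinase granules, 4 genes of the NADPH oxidase and 7 other genes. RNA-Seq was performed on ear tissue, labelled skin, of 8-week-old female C57BL/6 mice, which had received PBS, IL-17A, IL-36γ or IL-17A + IL-36γ (called the combination here) into the dermis of the ear pinna, at 1 µg of each cytokine in a volume of 5 µL. Treatment ran for 4 days in a row before the ears were taken, and RNA from 3 of the 5 mice in each group was sequenced, which gave 12 libraries. No group carried a transgene or a deletion, and PBS, the vehicle, was common to all groups.

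Neutrophils are made in the bone marrow, where they fill their granules in sequence: azurophil granules with myeloperoxidase and serine proteases are packed in early precursors, specific granules with lactoferrin follow, and gelatinase granules come late. Transcripts of early granule proteins are therefore largely gone from the mature cell, which leaves the blood with G-CSF receptor, chemokine and formyl peptide receptors on its surface and an NADPH oxidase ready for assembly. In psoriatic skin, mature neutrophils are known to collect in the epidermis. Among the transcription factors that drive these genes, PU.1 and the C/EBP family are textbook regulators of myeloid promoters.

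Total counts ranged from 25293468 to 34759293 per library. Levels are given as CPM, which are counts scaled to a common library size with TMM factors, and a change was called raised or lowered at an adjusted p under 0.05 in the quasi-likelihood test of edgeR together with an absolute log2 fold change above 1. Gene positions are on GRCm38 (GENCODE vM21), and unless stated otherwise a log2 fold change is the fitted difference from PBS. Of the 37 members, 32 passed the filter on low counts and were tested. The 5 others were Itgb2l, Elane, Mpo, Prtn3 and Ngp. Of the 32, 20 reached the filter's cutoff of 0.334 CPM in every PBS library and 12 did not. Those 12 passed only through libraries above the cutoff, which for most of them were treated ones, so that counts of raised members are also given for the 20. PBS replicate 2 stood apart from the other PBS libraries, with 224 counts of Acod1 against 4 and 4, 77 of Trem1 against 8 and 8, 136 of Clec4e against 26 and 19, and 18 of Fpr1 against 1 and 2. IL-17A replicate 1 was the highest of its group in 11 of the 12 receptors (not in Hcar2), and its Acod1 count was 309 against 12 and 11.

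Promoter sequences from RefSeq (GRCm38.p6), from 250 bases before to 50 bases after each annotated start, were matched to 32 of the 37 members. Trem3, Selplg, Itgb2, Hcar2 and Ncf4 were not matched. Each window was searched on both strands for GAGGAA, the core of a PU.1 site, for GAGGAAGT, a longer form that contains this core, for TTGCNNAA, a C/EBP pattern, and for a pattern of NF-kappaB. GAGGAA was found in 22 of the 32 member promoters (68.8%) and in 28.3% of all 32851 promoters. GAGGAAGT was found in 6 member promoters (18.8%, all promoters 3.2%), which were those of Mmp8, Prtn3, Elane, Mpo, Ly6g and Itgb2l. TTGCNNAA was found in 8 (25%, all promoters 10.8%) and the NF-kappaB pattern in 1, that of Pglyrp1 (3.12%, all promoters 1.63%). By role, GAGGAA lay in 8 of 10 receptor promoters, 3 of 4 surface and adhesion promoters, 4 of 4 azurophil granule promoters, 3 of 4 specific and gelatinase granule promoters, 1 of 3 oxidase promoters and 3 of 7 promoters of the other members. The promoters of 4 members on which the results below turn are shown on the strand of the gene, with matches to GAGGAA or TTGCNNAA on either strand in capitals. Those of Ly6g and Cxcr2 end at the last base before the annotated gene. Those of Mmp8 and Clec4e end at the last base before the RefSeq start, which lies upstream of the GENCODE gene. Ly6g (chr15:75155011-75155239, plus strand) and Mmp8 (chr9:7558179-7558428, plus strand) hold both GAGGAA and TTGCNNAA, Clec4e (chr6:123289872-123290121, minus strand) holds GAGGAA at 2 places beside TTGCNNAA, and Cxcr2 (chr1:74153744-74153988, plus strand) holds only GAGGAA, read on the opposite strand as TTCCTC.
Ly6g: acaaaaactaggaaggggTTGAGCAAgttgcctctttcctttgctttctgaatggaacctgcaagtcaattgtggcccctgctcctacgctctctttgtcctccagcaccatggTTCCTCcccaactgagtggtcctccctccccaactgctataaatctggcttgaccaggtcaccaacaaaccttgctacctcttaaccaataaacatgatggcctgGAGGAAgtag
Mmp8: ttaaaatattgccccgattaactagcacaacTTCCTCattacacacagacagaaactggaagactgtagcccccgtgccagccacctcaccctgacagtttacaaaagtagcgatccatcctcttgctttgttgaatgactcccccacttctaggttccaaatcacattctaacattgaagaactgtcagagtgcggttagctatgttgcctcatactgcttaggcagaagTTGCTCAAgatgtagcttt
Clec4e: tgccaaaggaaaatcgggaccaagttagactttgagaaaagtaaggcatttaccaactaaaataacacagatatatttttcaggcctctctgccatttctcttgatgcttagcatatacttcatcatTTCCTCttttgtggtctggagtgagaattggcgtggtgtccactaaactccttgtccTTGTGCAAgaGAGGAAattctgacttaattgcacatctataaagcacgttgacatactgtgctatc
Cxcr2: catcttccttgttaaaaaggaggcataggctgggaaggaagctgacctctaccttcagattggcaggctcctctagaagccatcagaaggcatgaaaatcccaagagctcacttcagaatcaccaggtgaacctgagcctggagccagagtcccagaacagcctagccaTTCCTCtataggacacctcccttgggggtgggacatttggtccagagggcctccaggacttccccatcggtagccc
In Ly6g the GAGGAA matches started 136 and 31 bases before the RefSeq start. In Mmp8 the match started 219 bases before it, in Clec4e 123 and 56 bases before it, and in Cxcr2 81 bases before it. These matches describe letters and were not tested for binding of a factor.

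Across the 37 members, levels were lowest with PBS and highest with the combination for most receptors, for Ly6g and for Mmp8, whereas the early granule genes Elane, Mpo and Prtn3 had 8 counts or fewer in every library. Against PBS, 5 members were called raised with IL-17A, where 1.07% of all genes tested were raised. With IL-36γ 18 members were raised and 2 were lowered, with 5.11% and 1.98% of all genes called in those directions. With the combination 25 members were raised and 2 were lowered, against 7.35% and 6.06% of all genes. Among the 20 members above the cutoff in every PBS library, 3, 12 and 15 were raised in the same order. The share of all genes under the same restriction was not computed, so these counts have no matching background. The 32 tested members had a median log2 fold change of 0.86 with IL-17A, 1.42 with IL-36γ and 2.17 with the combination, beside 0.04, -0.02 and -0.03 over all genes. Over all 37 members, in the fit without the filter on low counts, the medians were 0.67, 1.38 and 2.11. No member was called lowered with IL-17A by edgeR or by DESeq2, and Padi4 was the only lower member with an unadjusted p under 0.05 there. The comparisons with PBS share the same 3 PBS libraries, and in RNA of whole tissue fewer cells of a type and less RNA per cell cannot be told apart.

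**Figure D1:**
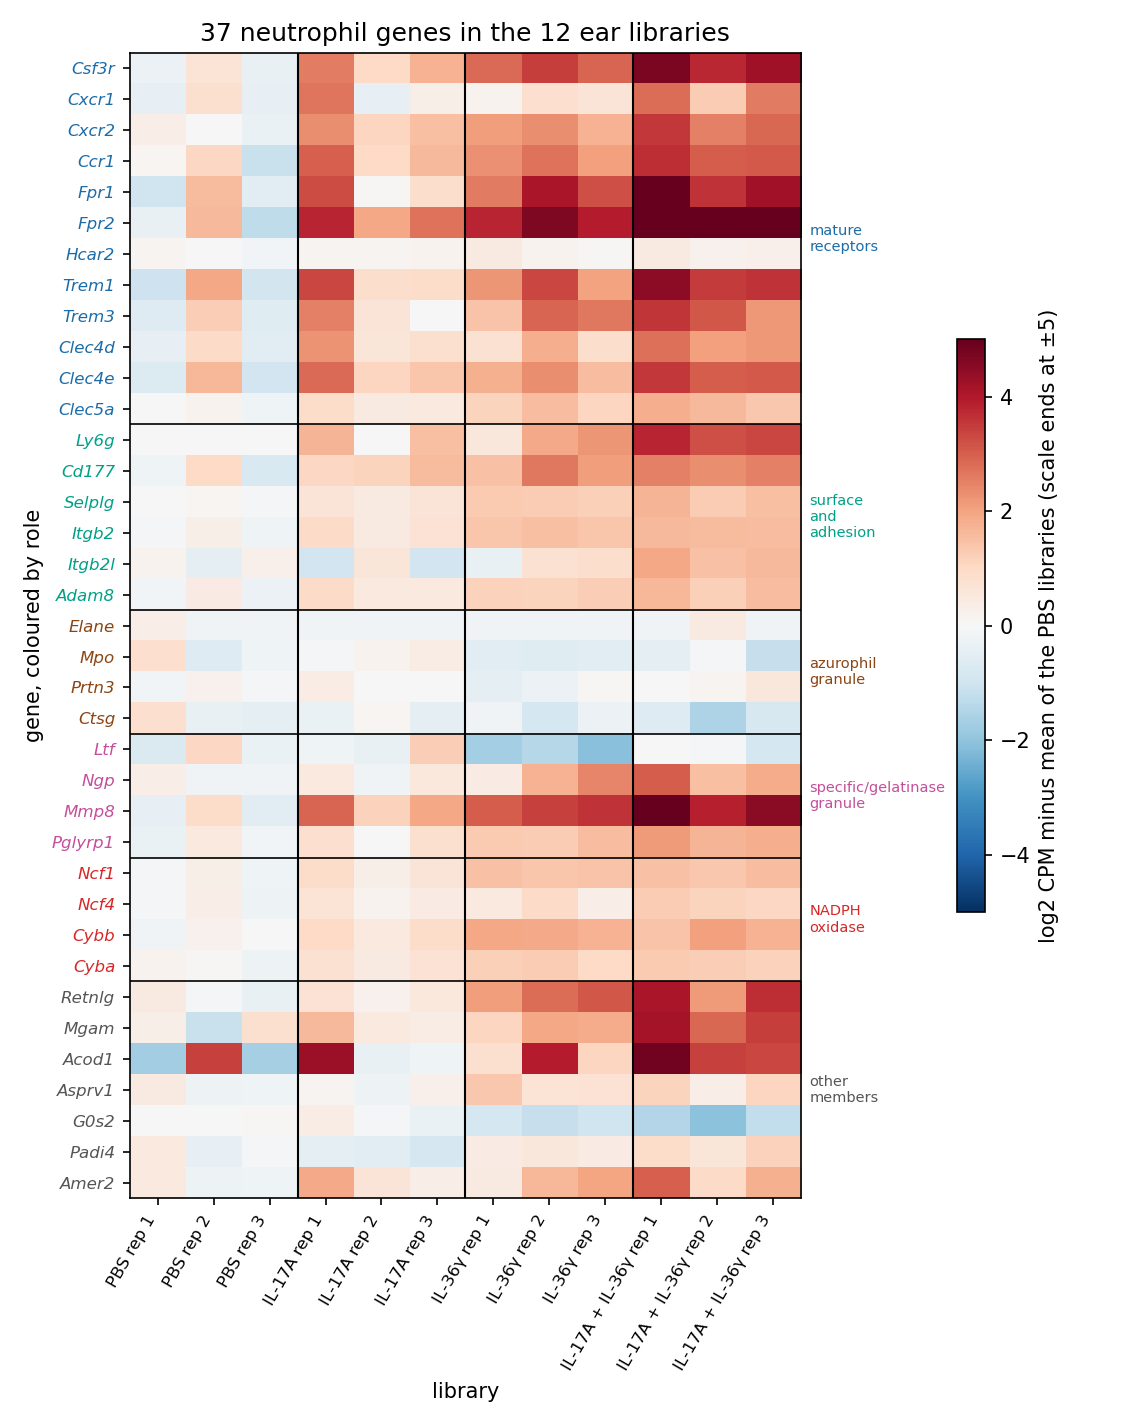
Levels of the 37 members (rows, coloured by role) in the 12 libraries (columns), as log2 CPM minus the mean of the PBS libraries of each gene, with red for higher and blue for lower values and a scale that ends at 5 on either side. The receptors and Mmp8 darken towards the combination, the oxidase genes reach about the same shade with IL-36γ as with the combination, and PBS replicate 2 is red for Acod1 and Trem1.

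Among the receptors of mature neutrophils, 4 of 12 were raised with IL-17A (Csf3r, Cxcr2, Ccr1 and Fpr2), 7 with IL-36γ and 11 with the combination, and all 12 lay above PBS in each of these comparisons. The median of their fold changes on the log2 scale was 1.64 with IL-17A, 2.04 with IL-36γ and 3.17 with the combination. Cxcr1, Fpr1, Fpr2, Trem1 and Trem3 were below the filter's cutoff in a PBS library, and no median was made without them. Csf3r (ENSMUSG00000028859, chr4:126024550-126044440, plus strand), the receptor for the neutrophil growth factor G-CSF, lay at 3.10, 6.06 and 2.91 CPM in the PBS libraries, at 22.8, 7.71 and 12.8 CPM with IL-17A, at 27.4, 42.6 and 28.7 CPM with IL-36γ and at 102, 52.9 and 73.3 CPM with the combination. No libraries of different groups overlapped, and the groups stood in the order PBS, IL-17A, IL-36γ, combination. Its log2 fold change against PBS was 1.84 with IL-17A (SE 0.41, adjusted p = 0.0245), 3.03 with IL-36γ (SE 0.41, adjusted p = 0.000413) and 4.24 with the combination (SE 0.43, adjusted p = 2.99e-05). Cxcr2, the receptor for the neutrophil-attracting chemokines of the CXC family, lay at 6.34, 5.04 and 4.03 CPM with PBS, at 25.8, 10.8 and 14.6 CPM with IL-17A, at 21.8, 25.8 and 17.0 CPM with IL-36γ and at 59.7, 29.5 and 37.8 CPM with the combination. The libraries of the single cytokines overlapped each other, and those of the combination lay above both. Its log2 fold changes were 1.73 (SE 0.34, adjusted p = 0.0178), 2.06 (SE 0.34, adjusted p = 0.00125) and 3.04 (SE 0.34, adjusted p = 5.65e-05) in the same order.

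Ccr1, a receptor for inflammatory CC chemokines that monocytes also carry, lay at 3.76, 7.36 and 1.61 CPM with PBS, at 28.4, 7.08 and 11 CPM with IL-17A, at 17.4, 24.0 and 14.9 CPM with IL-36γ and at 46.9, 29.5 and 30.5 CPM with the combination. IL-17A replicate 2 lay below PBS replicate 2, and the combination stood above every other library. Fpr2, a formyl peptide receptor that senses bacterial and mitochondrial peptides, was the most raised receptor in each comparison with PBS. Its counts were 2, 15 and 0 with PBS, 57, 16 and 24 with IL-17A, 65, 131 and 68 with IL-36γ and 239, 143 and 147 with the combination. The log2 fold changes were 2.86 (SE 0.79, adjusted p = 0.0427), 4.09 (SE 0.73, adjusted p = 0.00207) and 5.28 (SE 0.71, adjusted p = 0.000159). A stretch of 48 exonic bases is shared with Fpr3 on the same strand, where reads could belong to either gene. Without PBS replicate 2 the values of Fpr2 were 5.18, 6.42 and 7.62. Each of the 5 calls with IL-17A was lost without IL-17A replicate 1 and without PBS replicate 3, and over the 12 libraries left out in turn that of Fpr2 was lost in 10 fits and that of Mmp8 in 8. Most calls of other genes were lost as well. Over all genes, those raised with IL-17A fell from 208 to 26 without IL-17A replicate 1 and to 10 without PBS replicate 3. Hcar2, a receptor for hydroxybutyrate and niacin that skin-resident cells carry as well, stood apart from the other receptors. It had 63.6, 58.1 and 53.0 CPM with PBS, 63.5, 63.4 and 65.5 CPM with IL-17A, 79.0, 65.9 and 61.1 CPM with IL-36γ and 78.6, 67.0 and 69.2 CPM with the combination. Both groups given a single cytokine overlapped PBS, and Hcar2 was called in no comparison (log2 fold change of 0.30 with the combination). Per kb of exon, Hcar2 was the highest of the receptors in each group, at 30.2 CPM per kb with PBS, where Csf3r lay at 1.11.

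The C-type lectin receptors and TREM receptors, which signal through immunoreceptor adaptors, were called raised mainly with the combination. Clec4e, which binds mycobacterial glycolipids and RNA-binding proteins of dead cells, lay at 0.720, 3.85 and 0.576 CPM with PBS, at 8.79, 2.59 and 3.26 CPM with IL-17A, at 4.19, 6.21 and 3.55 CPM with IL-36γ and at 14.4, 10.1 and 10.4 CPM with the combination. PBS replicate 2 overlapped both single cytokines, and the combination lay above all other libraries. The log2 fold change was 1.5 with IL-17A (SE 0.62, adjusted p = 0.126), 1.43 with IL-36γ (SE 0.62, adjusted p = 0.102) and 2.75 with the combination (SE 0.62, adjusted p = 0.00385). Without PBS replicate 2 it was 2.89 with IL-17A and 2.83 with IL-36γ, both past the threshold, and 4.16 with the combination. Clec4d, its neighbour on chromosome 6, and Trem1 were likewise called against PBS in the combination only, with log2 fold changes of 2.21 and 3.31. Clec5a, Trem3 and Fpr1 were called with IL-36γ and with the combination, with log2 fold changes of 1.62, 3.28 and 4.31 in the combination. Cxcr1 had 0, 3 and 0 counts with PBS, 13, 0 and 1 with IL-17A, 1, 3 and 2 with IL-36γ and 14, 4 and 14 with the combination. With so few counts its ratio of the combination to PBS was 13.4 with a counting interval of 4.21 to 68.6 (exact Clopper-Pearson, 95%), and this and the later counting intervals cover counting error only.

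**Figure D2:**
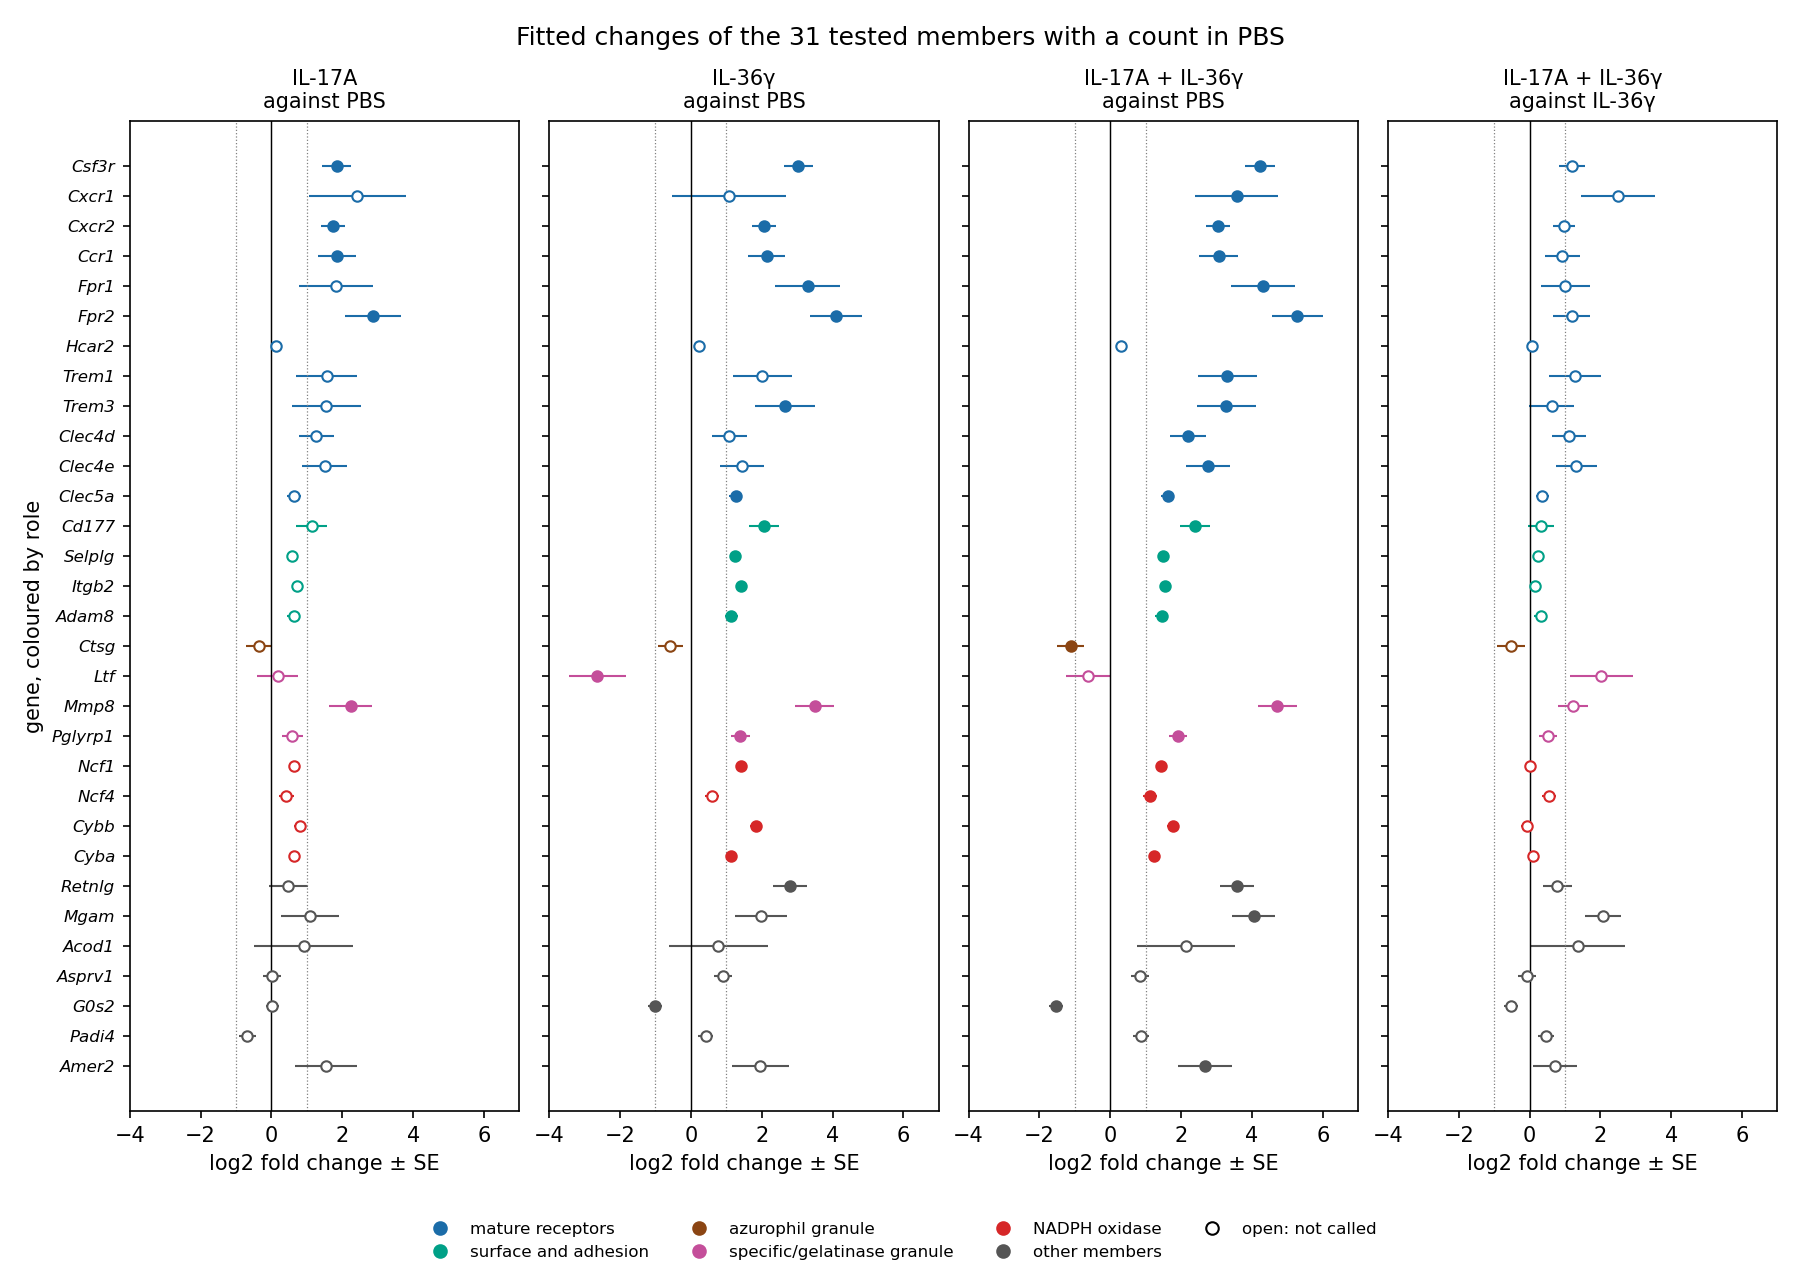
Fitted log2 fold changes of the 31 tested members with a count in PBS (points, bars ± SE, coloured by role), filled where called raised or lowered, in 4 comparisons. Dotted lines mark log2 values of 1 and -1. In the comparison of the combination with IL-36γ all points are open.

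Of the 6 surface and adhesion genes, 5 were raised with IL-36γ and with the combination and none with IL-17A, where 3 passed the adjusted p alone. Ly6g (ENSMUSG00000022582, chr15:75155240-75159126, plus strand), the antigen by which mouse neutrophils are stained, had 0 counts in all PBS libraries, 4, 0 and 3 counts with IL-17A, 1, 6 and 7 with IL-36γ and 22, 15 and 18 with the combination. The 0 counts of the PBS group allow a level of up to 0.0287 CPM (3 counts over the group). Against that level, the measured level of Ly6g was 2.99-fold with IL-17A, 5.30-fold with IL-36γ and 23.1-fold with the combination. These folds take the treated counts as exact, so they are not lower limits that cover counting error in the treated groups. IL-17A replicate 2 was at 0 as well, and the combination did not overlap any other group. The adjusted p of edgeR was 0.101 with IL-17A, 0.0244 with IL-36γ and 0.000557 with the combination. The call with IL-36γ was lost when PBS replicate 2, PBS replicate 3, IL-36γ replicate 2 or IL-36γ replicate 3 was left out. Itgb2, the beta chain shared by the leukocyte integrins, lay at 22.6, 29.3 and 20.4 CPM with PBS, at 46.8, 32.6 and 39.1 CPM with IL-17A, at 63.0, 67.7 and 61.7 CPM with IL-36γ and at 73.2, 70.9 and 69.2 CPM with the combination. All 4 groups were apart, with log2 fold changes of 0.71 (SE 0.14, adjusted p = 0.0178), 1.41 (SE 0.14, adjusted p = 6.31e-05) and 1.56 (SE 0.14, adjusted p = 1.72e-05). Macrophages and lymphocytes use this chain too.

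Selplg, the ligand of P-selectin, had 14.0, 15.1 and 13.7 CPM with PBS, 22.4, 19.4 and 22.1 CPM with IL-17A, 34.9, 34.2 and 32.7 CPM with IL-36γ and 46.9, 34.2 and 40.2 CPM with the combination. Adam8, a metalloprotease of leukocytes, had 20.3, 29.3 and 18.3 CPM with PBS, 43.5, 30.8 and 30.9 CPM with IL-17A, 49.3, 48.1 and 52.5 CPM with IL-36γ and 70.3, 50.8 and 64.6 CPM with the combination. In both genes every treated library lay above every PBS library. Cd177, a glycoprotein anchored in the neutrophil membrane, had 0.388, 0.991 and 0.242 CPM with PBS, 1.01, 1.06 and 1.53 CPM with IL-17A, 1.40, 3.23 and 2.20 CPM with IL-36γ and 3.00, 2.56 and 3.01 CPM with the combination. Its IL-36γ libraries overlapped those of the combination. Itgb2l, an integrin chain related to Itgb2, was not tested, and held 7 counts over the PBS group, 4 with IL-17A, 11 with IL-36γ and 29 with the combination. The ratio of the combination to PBS was 5.22 with a counting interval of 2.24 to 14.1.

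The azurophil granule genes did not move with the receptors. Elane, neutrophil elastase, had 1 count in PBS replicate 1, 1 count in replicate 2 of the combination and 0 in the other libraries, so that no fold was given. Mpo, myeloperoxidase, had 7, 1 and 2 counts with PBS, 2, 3 and 3 with IL-17A, 1, 1 and 1 with IL-36γ and 1, 2 and 0 with the combination. Prtn3, proteinase of the same granules, had 5, 7 and 5 counts with PBS, 6, 5 and 4 with IL-17A, 3, 4 and 5 with IL-36γ and 4, 5 and 8 with the combination. Mpo and Prtn3 overlap antisense exons of Gm11505 and Plppr3, and the strand setting of the counting is not given in the sources used here, so these few reads could belong to either gene. Ctsg, cathepsin G, which connective tissue mast cells also store, was the only azurophil gene that was tested. It lay at 3.63, 1.56 and 1.45 CPM with PBS, at 1.58, 2.16 and 1.45 CPM with IL-17A, at 1.76, 1.07 and 1.65 CPM with IL-36γ and at 1.29, 0.658 and 1.14 CPM with the combination. The combination lay below every PBS library, and PBS replicate 1 stood far above the others of its group. Ctsg was lowered with the combination, with a log2 fold change of -1.11 (SE 0.38, adjusted p = 0.0328), a call that was lost without PBS replicate 1, where the value was -0.55, and without replicate 2 or 3 of the combination. None of 7 mast cell markers was called in any comparison with PBS, although 3 passed the adjusted p alone on the lower side with the combination, and their summed level was 229 to 251 CPM with PBS and 213 to 228 CPM with the combination. Their part in the Ctsg values was not tested.

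The specific and gelatinase granule genes split. Mmp8 (ENSMUSG00000005800, chr9:7558456-7568485, plus strand), the collagenase of neutrophils, had 0.138, 0.453 and 0.121 CPM with PBS, 1.95, 0.532 and 0.965 CPM with IL-17A, 2.13, 2.86 and 3.24 CPM with IL-36γ and 9.21, 3.99 and 6.09 CPM with the combination. The groups stood apart in the same order as for Csf3r. Its log2 fold change was 2.24 with IL-17A (SE 0.60, adjusted p = 0.0390), 3.50 with IL-36γ (SE 0.55, adjusted p = 0.00103) and 4.72 with the combination (SE 0.54, adjusted p = 6.02e-05), the most raised of its role in each case. Without PBS replicate 2 these values were 3.08, which was no longer called, 4.35 and 5.58, and without IL-17A replicate 1 the first was 1.58 and not called. Pglyrp1, a peptidoglycan-binding protein, had 0.609, 1.10 and 0.697 CPM with PBS, 1.47, 0.798 and 1.41 CPM with IL-17A, 2.03, 1.98 and 2.38 CPM with IL-36γ and 3.59, 2.67 and 2.88 CPM with the combination. It was raised with IL-36γ and with the combination, by log2 values of 1.40 and 1.91, and its IL-17A libraries overlapped PBS. Ngp, neutrophilic granule protein, was not tested and had 1, 0 and 0 counts with PBS, 1, 0 and 1 with IL-17A, 1, 6 and 10 with IL-36γ and 14, 4 and 6 with the combination. Its ratio of the combination to PBS was 30.2 with a counting interval of 4.93 to 1244, and of IL-36γ to PBS 19.3 with an interval of 3.03 to 807. Ltf, lactoferrin, which glandular epithelium also makes, had 7, 29 and 9 counts with PBS, 8, 8 and 23 with IL-17A, 2, 3 and 1 with IL-36γ and 9, 9 and 5 with the combination. Only the IL-36γ libraries lay below all others. Ltf was lowered with IL-36γ at a log2 fold change of -2.65 (SE 0.81, adjusted p = 0.0290), and the call was lost without PBS replicate 2, where the value was -1.77, or without any one of the IL-36γ libraries. With IL-17A and with the combination it was not called (log2 fold changes of 0.17 and -0.62), and these signs turned when single libraries were left out.

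**Figure D3:**
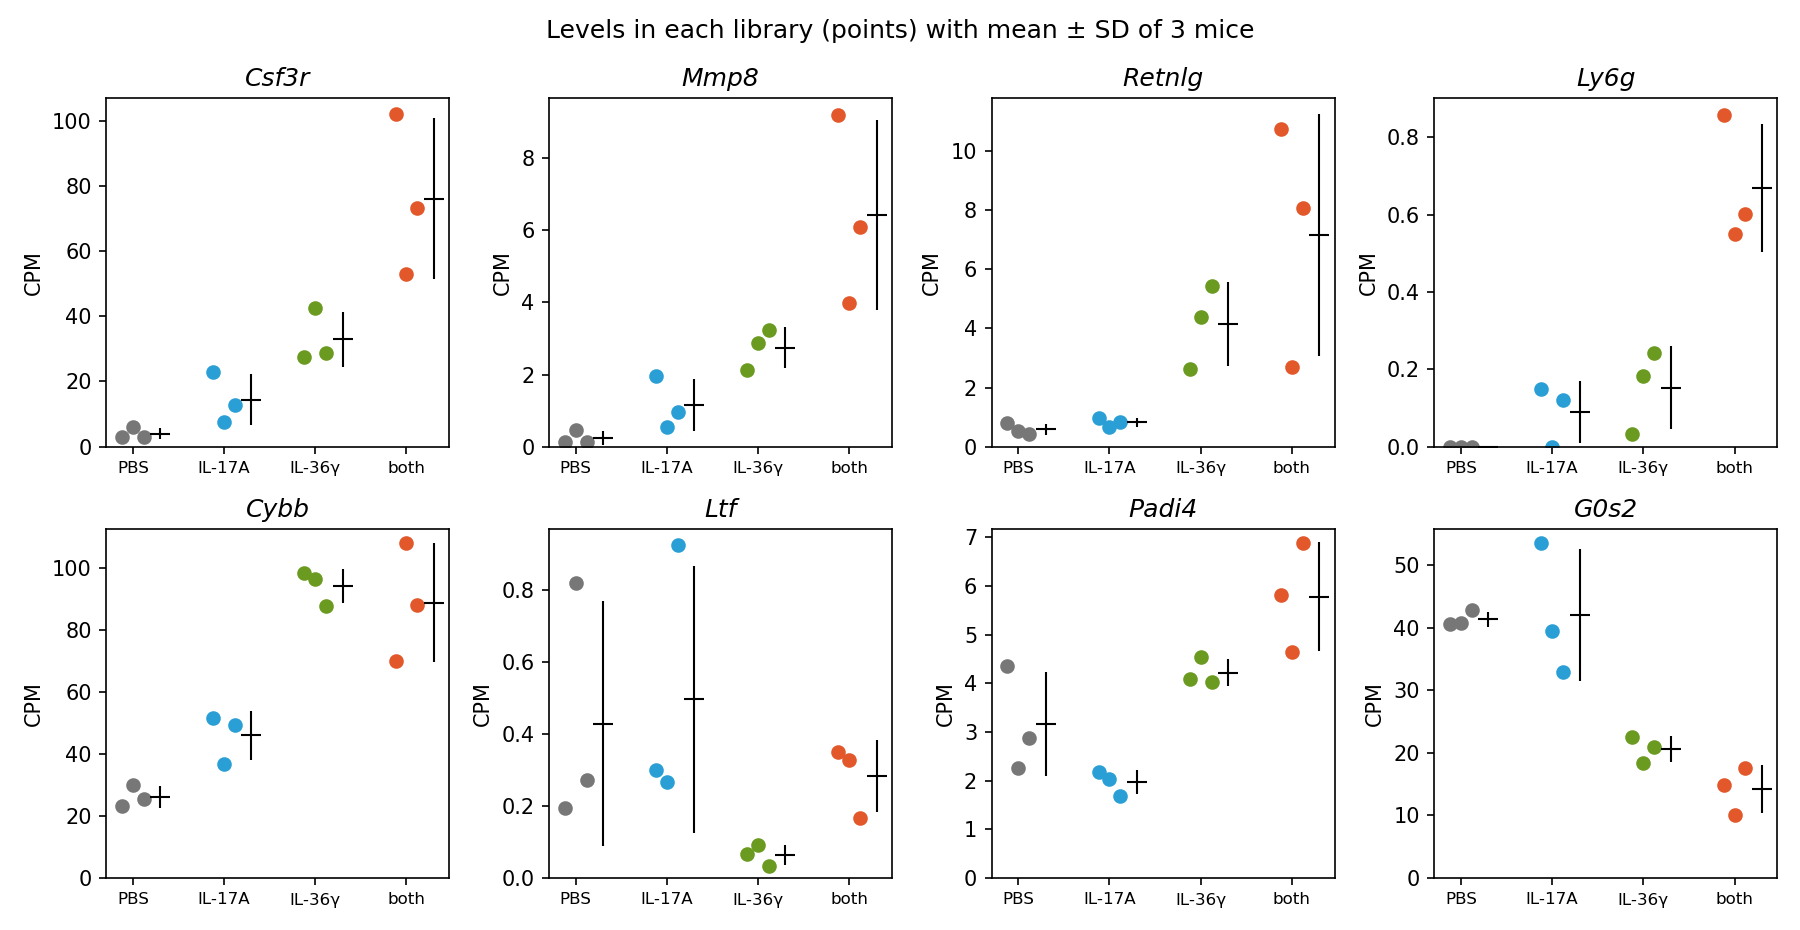
CPM of 8 members in each library (points) with the mean ± SD of 3 mice beside them, in PBS, IL-17A, IL-36γ and the combination (both). Csf3r and Mmp8 stand in 4 separate steps, Cybb reaches 94.3 CPM with IL-36γ and 88.8 CPM with the combination, and Ltf is lowest with IL-36γ.

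Of the 4 genes of the NADPH oxidase, which makes superoxide in neutrophils and in macrophages, Cybb, Cyba and Ncf1 were raised with IL-36γ, and their libraries with the combination overlapped those with IL-36γ. With IL-17A none of the 4 was called, although 3 passed the adjusted p alone (11 of all members did, beside 7.44% of all genes). With the combination all 4 were raised. Cybb (ENSMUSG00000015340, chrX:9435252-9487771, minus strand), the catalytic membrane subunit, lay at 23.1, 30.2 and 25.4 CPM with PBS, at 51.6, 36.9 and 49.4 CPM with IL-17A, at 98.5, 96.3 and 87.9 CPM with IL-36γ and at 69.9, 108 and 88.2 CPM with the combination. PBS, IL-17A and IL-36γ were apart from each other, while the combination spanned the IL-36γ libraries. The log2 fold changes of Cybb were 0.81 (SE 0.16, adjusted p = 0.0197), 1.85 (SE 0.17, adjusted p = 4.28e-05) and 1.76 (SE 0.17, adjusted p = 2.13e-05), the highest of its role in each comparison. Cyba, its partner in the membrane, had 23.6, 21.7 and 17.3 CPM with PBS, 35.2, 28.3 and 34.0 CPM with IL-17A, 47.0, 50.5 and 41.1 CPM with IL-36γ and 51.8, 48.5 and 46.7 CPM with the combination, and was the highest oxidase gene per kb in each group. Its log2 fold changes were 0.64 (SE 0.12, adjusted p = 0.0175), 1.15 (SE 0.12, adjusted p = 9.85e-05) and 1.23 (SE 0.12, adjusted p = 2.96e-05). Ncf1, a cytosolic organiser subunit, had 13.5, 17.1 and 12.1 CPM with PBS, 26.4, 17.5 and 22.3 CPM with IL-17A, 39.5, 37.4 and 38.4 CPM with IL-36γ and 39.0, 35.8 and 41.6 CPM with the combination, with log2 fold changes of 0.63 (SE 0.15, adjusted p = 0.0269), 1.43 (SE 0.15, adjusted p = 7.94e-05) and 1.44 (SE 0.15, adjusted p = 3.25e-05). In Cyba and Ncf1 every IL-17A library lay above PBS and below the libraries that had received IL-36γ.

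Ncf4, another cytosolic subunit, was called with the combination but not with IL-36γ. It had 4.51, 6.00 and 3.94 CPM with PBS, 7.70, 5.35 and 6.36 CPM with IL-17A, 6.69, 9.17 and 5.92 CPM with IL-36γ and 11.5, 10.4 and 9.83 CPM with the combination. Only the combination was clear of every other library, and its log2 fold change was 1.13. Of 12 markers of monocytes and macrophages, 2 were raised with IL-17A, 9 with IL-36γ and 7 with the combination. Their summed level was 720 to 850 CPM with PBS, 1100 to 1533 CPM with IL-17A, 1719 to 1912 CPM with IL-36γ and 1566 to 1750 CPM with the combination, and none of the markers was at 0. Their part in the oxidase values was not tested. Ncf1 overlaps 408 bases of antisense exons of Gtf2ird2.

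Of the 7 other members, 1 was raised with IL-36γ (Retnlg), 3 were raised with the combination (Retnlg, Mgam and Amer2), and G0s2 was lowered in both comparisons. Retnlg, a resistin-like protein of neutrophils, had 0.803, 0.538 and 0.424 CPM with PBS, 0.977, 0.665 and 0.845 CPM with IL-17A, 2.63, 4.39 and 5.44 CPM with IL-36γ and 10.7, 2.71 and 8.06 CPM with the combination. The IL-17A libraries overlapped PBS, and replicate 2 of the combination lay within the IL-36γ range. Its log2 fold change was 0.48 with IL-17A (SE 0.55, adjusted p = 0.584), 2.80 with IL-36γ (SE 0.48, adjusted p = 0.00165) and 3.59 with the combination (SE 0.48, adjusted p = 0.000151). Mgam, maltase-glucoamylase, had 4, 0 and 6 counts with PBS, 10, 4 and 3 with IL-17A, 7, 16 and 13 with IL-36γ and 64, 27 and 45 with the combination. Its log2 fold change of 4.05 with the combination (SE 0.61, adjusted p = 0.000320) was the highest of these 7 genes, and was 4.79 without PBS replicate 3. Amer2, an adaptor of Wnt signalling, had the highest value of these genes with IL-17A, a log2 fold change of 1.54 that was not called (SE 0.87, adjusted p = 0.250), and was raised with the combination by 2.68. Acod1, which makes itaconate in activated myeloid cells, was called in no comparison. Its levels were 0.111, 6.34 and 0.121 CPM with PBS, 11.61, 0.399 and 0.443 CPM with IL-17A, 0.965, 9.05 and 1.21 CPM with IL-36γ and 16.9, 6.29 and 5.99 CPM with the combination. A single library exceeded the rest of its group by far in each of the 3 groups other than the combination.

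Asprv1, a protease of the granular epidermis that neutrophils also express, had 895, 549 and 568 CPM with PBS, 728, 546 and 777 CPM with IL-17A, 1658, 1052 and 1073 CPM with IL-36γ and 1399.9, 823 and 1374 CPM with the combination. It was the highest member per kb in every group, at 433 CPM per kb with PBS, and its log2 fold changes of 0.91 with IL-36γ and 0.84 with the combination stayed under the threshold of 1. Set against Krt10, a keratin of the upper epidermis, its ratio per kb was 0.150 ± 0.00225 with PBS, 0.138 ± 0.0347 with IL-17A, 0.166 ± 0.0192 with IL-36γ and 0.200 ± 0.0561 with the combination (SD, n = 3), with overlapping libraries. The summed level of 6 keratinocyte markers was 13617 to 19396 CPM with PBS, 19301 to 21035 CPM with IL-17A, 23714 to 32129 CPM with IL-36γ and 29879 to 35675 CPM with the combination, and their part in the Asprv1 values was not tested. G0s2 (ENSMUSG00000009633, chr1:193272161-193273217, minus strand), an inhibitor of lipolysis that adipocytes express strongly, moved in the other direction. It had 40.5, 40.7 and 42.7 CPM with PBS, 53.5, 39.4 and 32.9 CPM with IL-17A, 22.5, 18.4 and 20.9 CPM with IL-36γ and 14.9, 9.99 and 17.6 CPM with the combination. IL-17A surrounded PBS, and the 2 groups with IL-36γ lay below both without overlap between them. Its log2 fold change was 0.02 with IL-17A, -1.005 with IL-36γ (SE 0.19, adjusted p = 0.00316) and -1.54 with the combination (SE 0.20, adjusted p = 0.000119). The value with IL-36γ sat at the threshold and was not called without PBS replicate 3 or IL-36γ replicate 2. Of 7 adipocyte markers, none was called with IL-17A or IL-36γ and 6 were lowered with the combination, and their summed level was 284 to 367 CPM with PBS, 260 to 440 CPM with IL-17A, 150 to 292 CPM with IL-36γ and 104 to 165 CPM with the combination. Per unit of the adipocyte gene Plin1, on CPM per kb, G0s2 was 10.4 ± 1.78 with PBS, 8.57 ± 2.26 with IL-17A, 7.94 ± 3.37 with IL-36γ and 10.5 ± 2.02 with the combination (SD, n = 3). The groups overlapped, although 2 of the IL-36γ ratios, at 5.93 and 6.05, lay below every PBS ratio. The part of these markers in the G0s2 values was not tested.

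Adding IL-17A to IL-36γ called no member. In the comparison of the combination with IL-36γ, 0 of 32 members were raised or lowered in the quasi-likelihood test of edgeR and 0 in the likelihood ratio test of DESeq2, while 13 members had an unadjusted p under 0.05. Over all genes the raised share was 0% and the lowered share 0.0103%, and 2938 of 19408 genes had an unadjusted p under 0.05. By role, the median log2 fold change of the combination against IL-36γ was 1.07 for the receptors, 0.31 for surface and adhesion, 1.23 for the 3 tested genes of specific and gelatinase granules, 0.05 for the oxidase and 0.00 over all genes, and the roles were not tested against each other. Csf3r had a log2 difference of 1.21 (SE 0.36, adjusted p = 0.180), Cxcr2 of 0.97 (SE 0.31, adjusted p = 0.199), Clec4e of 1.32 (SE 0.58, adjusted p = 0.311) and Mmp8 of 1.23 (SE 0.41, adjusted p = 0.209). For these 4 genes every library of the combination lay above every IL-36γ library. Cybb had a log2 difference of -0.09 (SE 0.16, adjusted p = 0.835), Ncf1 of 0.01 (SE 0.14, adjusted p = 0.976), Cyba of 0.08 (SE 0.12, adjusted p = 0.780) and Itgb2 of 0.15 (SE 0.13, adjusted p = 0.630). Mgam, at 2.07 (SE 0.50, adjusted p = 0.121), was the lowest in unadjusted p of the members and was called when no filter on low counts was applied.

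Adding IL-36γ to IL-17A, in contrast, gave calls. Against IL-17A the combination raised 11 members (Mmp8, Ly6g, Retnlg, Padi4, Cxcr2, Csf3r, Pglyrp1, Fpr1, Cd177, Fpr2 and Mgam) and lowered G0s2, beside 4.46% and 4.49% of all genes. By adjusted p alone 20 members were raised, beside 15.1% of all genes, and these included all 4 oxidase genes. Retnlg had a log2 difference of 3.11 (SE 0.47, adjusted p = 0.000796), Csf3r of 2.40 (SE 0.38, adjusted p = 0.00102) and Mmp8 of 2.49 (SE 0.45, adjusted p = 0.00199). G0s2 was lower by a log2 value of -1.56 (SE 0.20, adjusted p = 0.000348). Without IL-17A replicate 1, the library with the highest receptor levels of its group, 20 members were raised. IL-36γ against IL-17A raised 3 members, beside 1.25% of all genes, and lowered 1, beside 0.366%. Cybb was higher with IL-36γ by a log2 value of 1.04 (SE 0.16, adjusted p = 0.00508), Retnlg by 2.32 (SE 0.48, adjusted p = 0.0160) and Padi4 by 1.10 (SE 0.24, adjusted p = 0.0189), whereas G0s2 was lower, with -1.03 (SE 0.19, adjusted p = 0.0120). By adjusted p alone 7 members were raised, beside 4.37% of all genes. None of the 3 raised members was called without IL-17A replicate 2.

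An interaction (the log2 difference between the combination and IL-36γ, less the one between IL-17A and PBS) was called for 0 of the 32 members by edgeR, where 0.551% of all genes were called, and 6 members had an unadjusted p under 0.05. DESeq2 called 5 (Padi4 above 0, and Itgb2, Cyba, Cybb and Ncf1 below 0), where it called 9.66% of all genes that it tested. Padi4 (ENSMUSG00000025330, chr4:140745865-140774236, minus strand), a peptidylarginine deiminase that acts on histones when neutrophils release their chromatin, had 4.35, 2.27 and 2.88 CPM with PBS, 2.18, 2.03 and 1.69 CPM with IL-17A, 4.09, 4.54 and 4.03 CPM with IL-36γ and 5.81, 4.65 and 6.89 CPM with the combination. IL-17A alone stood below all PBS libraries, and the combination stood above all IL-36γ libraries. The interaction of Padi4 was 1.14 (SE 0.32, adjusted p = 0.0861) in edgeR. That of Cybb was -0.90 (SE 0.23, adjusted p = 0.0705), which means that the log2 differences of 0.81 and 1.85 of the single cytokines from PBS added up to more than the 1.76 of the combination.

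Ratios within a library set members of different roles against each other in the same RNA. Csf3r per Cybb, on CPM per kb, was 0.216, 0.323 and 0.185 with PBS, 0.713, 0.336 and 0.416 with IL-17A, 0.448, 0.711 and 0.526 with IL-36γ and 2.35, 0.786 and 1.34 with the combination. All libraries of the combination lay above those of the 3 other groups, and the single cytokines overlapped each other. Mmp8 per Csf3r was 0.0799 ± 0.0273 with PBS, 0.114 ± 0.0124 with IL-17A, 0.128 ± 0.0353 with IL-36γ and 0.123 ± 0.0111 with the combination (SD, n = 3), with overlap among all treated groups. Csf3r per Cxcr2 was 0.679 ± 0.307 with PBS, 0.696 ± 0.0821 with IL-17A, 1.296 ± 0.203 with IL-36γ and 1.53 ± 0.0989 with the combination. Both groups with IL-36γ lay above every library without it. Cybb per Adgre1, a macrophage marker, was 0.412 ± 0.00732 with PBS, 0.433 ± 0.0391 with IL-17A, 0.353 ± 0.0117 with IL-36γ and 0.395 ± 0.0843 with the combination. Its 3 IL-36γ ratios lay below every PBS and IL-17A ratio, and the combination overlapped all other groups. Csf3r per Adgre1 went from 0.0992 ± 0.0288 with PBS to 0.550 ± 0.205 with the combination. No test was made of these ratios.

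**Figure D4:**
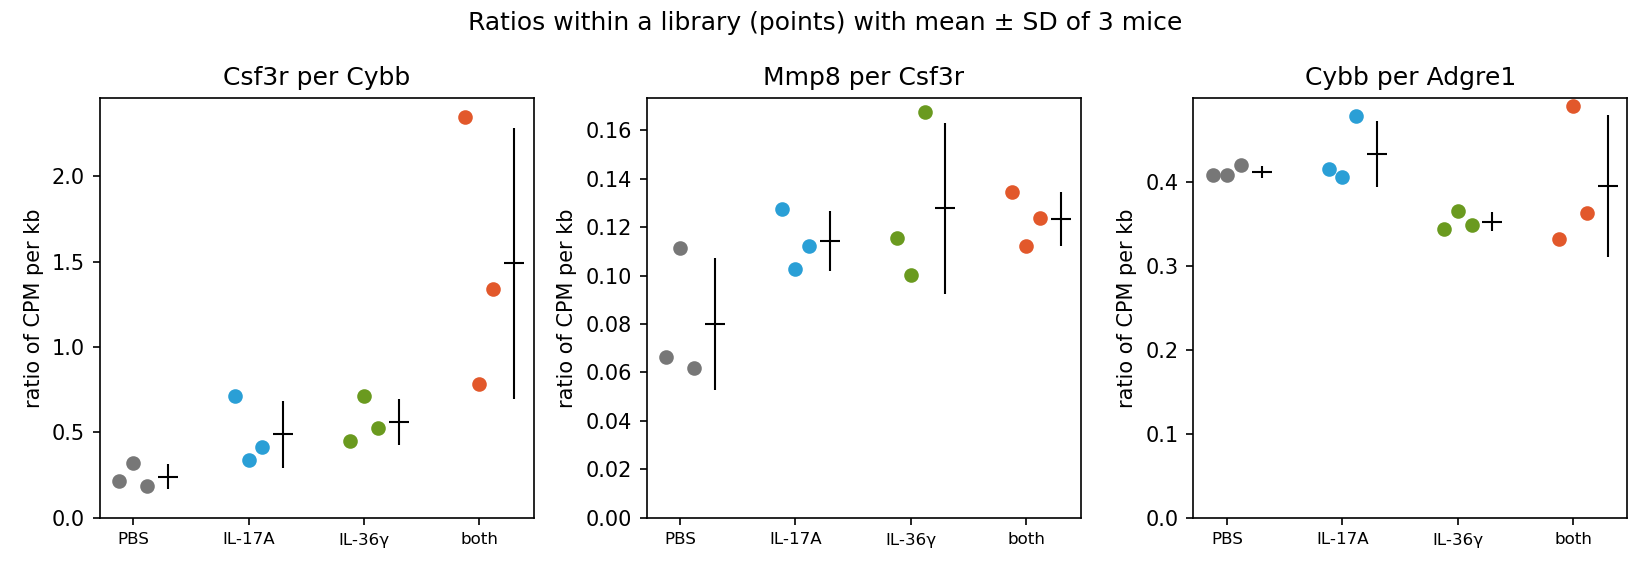
Ratios of CPM per kb within each library (points) with the mean ± SD of 3 mice, for Csf3r per Cybb, Mmp8 per Csf3r and Cybb per Adgre1 in PBS, IL-17A, IL-36γ and the combination (both). Csf3r per Cybb is highest in the 3 libraries of the combination, at 0.786 and above, whereas Cybb per Adgre1 lies between 0.332 and 0.491 in all 12 libraries, with the 3 IL-36γ ratios below those of PBS and IL-17A.

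A wider list of 22 neutrophil genes that are not members was read beside them, of which 19 were tested. With IL-17A 7 were raised, with IL-36γ 14 and with the combination 15, and none was lowered in these comparisons. S100a8 and S100a9, the subunits of calprotectin, which activated keratinocytes also make, were the most raised. S100a8 had 138, 1112 and 74 counts with PBS, 9581, 4443 and 7543 with IL-17A, 40248, 63547 and 26768 with IL-36γ and 96560, 86792 and 93750 with the combination, with log2 fold changes of 4.43, 6.80 and 8.07. PBS replicate 2 was again the highest of its group. The precursor genes Camp, Fcnb and Ms4a3 were not tested. Fcnb had 0 counts in every PBS and IL-17A library and at most 4 in any library, and Ms4a3 had at most 1. Rac2, a small GTPase that the oxidase needs, was raised with IL-36γ by a log2 value of 1.96 and with the combination by 2.17, and Cybc1, which the oxidase needs for its membrane subunits, was called in no comparison. For the neutrophil label, 6 markers were chosen from these lists with earlier results known (Ly6g, Csf3r, Cxcr2, Retnlg, S100a8 and S100a9). Their values therefore describe the label and do not test it. All 6 were raised with the combination. Among the members that neutrophil precursors make, Ctsg and Ltf were tested and not raised. Elane, Mpo, Prtn3 and Camp had too few counts to be tested, so they could not be called. Ngp, of the specific and gelatinase granules, went the other way, with 1 count over the PBS group and 24 with the combination. It was called raised there by DESeq2 and without the filter on low counts. Fcnb had 0 counts over the PBS group and 9 with the combination. Chil3, Lcn2 and Cebpe of the wider list, which precursors also make, were tested and were higher with the combination. Chil3 went from a mean of 2.68 CPM with PBS to 38.5 CPM, and Lcn2 from 2.51 to 106 CPM. Cebpe had 8 counts over the PBS group, all in PBS replicate 2, and 32 with the combination.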

How the data were processed

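RNA-Seq was performed on 12 ears, 3 mice in each of 4 groups. Per the labels and the methods of the study, ribosome-depleted stranded libraries were aligned by the authors with STAR (version 2.5.2b) to mm10 and counted per gene with featureCounts of Subread (version 1.5.1). The authors deposited whole-number counts that were not normalized. Their tables of fold changes and p-values were used only to pair gene symbols with Ensembl identifiers, and 0 columns of sample values were left unused. Total counts of 25293468 to 34759293 per library limit the precision of genes with few counts. No 2 replicates agreed within sampling noise (lowest chi-square per gene of a pair, 6.56).

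Counts were tested with the quasi-likelihood test of edgeR (version 4.0.16, limma 3.58.1, R 4.3.3), with filterByExpr at a minimum count of 10, TMM factors and 1 fit of the 4 group means. 19408 genes were tested, and p-values were adjusted over all of them (Benjamini-Hochberg). Calls required an adjusted p under 0.05 and a fold change beyond 1 on the log2 scale, except in the interaction, which had no threshold of size. Members with few counts were given as ratios of summed counts with exact Clopper-Pearson intervals, and a group at 0 was set to a floor of 3 counts over the group. CPM per kb used the exonic length of GENCODE vM21. The procedure was tested on simulated data for IL-36γ against PBS, where 174 of 200 genes changed by a log2 value of 2 and 7 unchanged genes were called among 19138.

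The members and all gene lists were chosen with earlier results of these data known, so their counts are descriptions beside those of all genes. Values in every library were given for the members with the highest mean CPM of their role, up to 4 per role, and for members at or under 3 counts in all libraries. Fold changes were given for Csf3r, Cxcr2, Ly6g, Itgb2, Mmp8, Ngp, Ltf, Retnlg, Cybb, Ncf1, Cyba and Clec4e, for members that were lowered or called against IL-36γ or in the interaction, and for the most raised member of each role against PBS. Fpr1, Trem1, Trem3, Clec4d, Clec5a, Cxcr1 and Itgb2l were named beyond these rules, after their values were seen. Other values also went beyond them. Among these were fold changes of Hcar2, Pglyrp1, Ncf4, Asprv1 and Padi4, and that of Amer2 with the combination. Values in every library of Clec4e, Fpr2, Ly6g, Retnlg and Mgam were likewise added. Alternatives were DESeq2 (version 1.42.0, likelihood ratio test), RLE factors, scaling by library size only, no filter, a replicate block, fits of only the 2 groups compared, no threshold on the fold change, and each library left out in turn. In the wider neutrophil list, some genes are counted but neither named nor given with their values.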

Additional observations from a re-analysis of the deposited data

Results flagged for a closer look

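Padi4 was flagged because its difference with IL-17A had opposite directions in ears without and with IL-36γ. All 3 IL-17A libraries lay below all PBS libraries, and all 3 libraries of the combination lay above all IL-36γ libraries. The margins were narrow. The highest IL-17A library had 2.18 CPM and the lowest PBS library 2.27 CPM. The lowest library of the combination had 4.65 CPM and the highest IL-36γ library 4.54 CPM. The difference between the log2 changes by IL-17A in these settings was 1.14 (SE 0.32), and its adjusted p was 0.0861 in edgeR, which misses the threshold. DESeq2 called it, and called 9.66% of all genes in this interaction, against 0.551% in edgeR.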

How the results depend on the processing

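Among 52 fold changes of named members, 574 values with a single library left out kept direction and side of the threshold, 44 kept the direction and lost the call, 2 gained it and 4 changed sign. Under the 6 other alternatives 294 values kept both, 6 lost the call, 4 gained it and 0 changed sign. The signs that turned were those of Ltf: its log2 fold change ranged from -0.60 to 1.05 after IL-17A and from -0.97 to 0.27 after the combination over the libraries left out, and neither was called. With single libraries left out, the number of raised members was 0 to 4 for IL-17A against PBS, 15 to 20 for IL-36γ against PBS, 23 to 28 for the combination against PBS, 9 to 20 for the combination against IL-17A, 0 to 0 for the combination against IL-36γ and 0 to 5 for IL-36γ against IL-17A. Over all genes the raised numbers were 10 to 375, 813 to 1103, 1315 to 1541, 700 to 1020, 0 to 13 and 54 to 306 in the same order. The number of lowered members was 0 to 2 for IL-36γ against PBS, 1 to 2 for the combination against PBS, 0 to 2 for IL-36γ against IL-17A and 0 to 1 in the interaction. Without IL-36γ replicate 2 no member was lowered after IL-36γ, and 1 was raised against IL-17A.

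With only the 2 groups compared, 0 members were raised after IL-17A, where 9 of all 18760 genes tested were raised. In these fits 1 member was lowered after IL-36γ, beside 319 of 19036 genes, and 1 after the combination, beside 1006 of 18902. This fit could not be made for the interaction. Without the threshold on the fold change, 11 were raised after IL-17A, 20 by the combination against IL-17A and 7 by IL-36γ against IL-17A. Without the filter on low counts, 1 member (Mgam) was raised by the combination against IL-36γ, 2 (G0s2 and Ltf) were lowered by IL-36γ against IL-17A and 1 (Cybb) was below 0 in the interaction. Of all 34054 genes, 18, 84 and 295 were called there in the same order. Ngp and Itgb2l, not tested in the main fit, were then raised with the combination against PBS and against IL-17A. Ngp was also raised with IL-36γ against PBS. DESeq2 made the same calls of Ngp and Itgb2l. DESeq2 put 1 member above 0 (Padi4) and 4 below 0 in the interaction, where it called 663 genes above and 1134 below 0. The causes were not tested. Scaling by library size only moved the median over all genes, on the log2 scale, to -0.13, -0.16 and -0.17 after IL-17A, IL-36γ and the combination, and the numbers of raised and lowered genes from 208 and 199 to 129 and 469, from 992 and 385 to 822 and 698, and from 1426 and 1177 to 1204 and 1667. Of 18 pairs of libraries with the same replicate number, 9 correlated above 0.1 (r from -0.199 to 0.352). Pairs with different numbers had r from -0.503 to 0.364, and a smaller share of them exceeded 0.1. These values cannot decide whether the numbers pair the samples, and the main fit used no pairing. The replicate block left the members at 5, 18 and 25 raised against PBS, and raised the interaction calls over all genes from 25 above and 82 below 0 to 391 and 492, whereas RLE factors gave 8 and 30 and scaling by library size only gave 1 and 2.

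Genes with few counts, among them Elane, Mpo, Prtn3, Ngp, Itgb2l, Cxcr1 and Ly6g, are limited by depth, and ratios that their counting intervals include were not detectable as differences. With 3 mice per group the calls after IL-17A rest on a few libraries.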

Other observations

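Lcn2 and Lyz2, 2 of the wider neutrophil genes that other cells also make, were called in the interaction by edgeR, with -1.62 (SE 0.30, adjusted p = 0.0475) and -0.99 (SE 0.13, adjusted p = 0.0242). Below 0 in the interaction were also 4 of 12 markers of monocytes and macrophages, among them Adgre1, Csf1r and C1qa, and 1 of 6 T cell markers (Cd4). Lcn2, lipocalin 2, was raised by log2 values of 2.75 with IL-17A, 4.27 with IL-36γ and 5.40 with the combination. Lyz2, lysozyme of myeloid cells, had log2 fold changes of 0.95, 1.41 and 1.37 in that order, the first of which was not called.

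Other granulocytes moved beside the neutrophil genes. Of 5 eosinophil markers 3 were tested, and Prg2, Ccr3 and Siglecf were raised both after IL-36γ and after the combination, with log2 fold changes of 2.14, 2.30 and 2.72 in the combination. Their summed level stayed low, at 0.606 to 1.39 CPM after PBS and 3.15 to 6.28 CPM after the combination. Of 6 T cell markers 3 were raised after IL-36γ (Cd4, Cd8a and Trac) and 2 after the combination (Cd8a and Trac), where Cd3g was lower by adjusted p alone, with a log2 fold change of -0.71, and Cd3e stood at -0.63, which did not pass. Skeletal muscle markers summed to 176 CPM in PBS replicate 1, against 2010 and 1682 CPM in the other PBS libraries, and to 181, 101 and 732 CPM after the combination, where all 7 markers were lower than in PBS (median log2 fold change -2.04) and none was called. The part of muscle in the other values was not tested.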
